A study of Mus musculus with 2 samples.

Results

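The replication-dependent histone genes are described here through the Bcl3 peaks that the authors' annotation assigns to them. Members are all genes whose old mouse name begins with Hist1h, Hist2h, Hist3h or Hist4h in the wide annotation of the peak list, with every peak listed for them. This gave 57 genes and 16 distinct peaks, out of 8982 genes and 1130 peaks in all. Because neighbouring genes share peaks (142 pairs of a peak and a gene from 16 peaks), peaks are counted as the units and gene counts are given beside them. The members were chosen by the peak calls and their annotation, so the counts and values are descriptions and carry no test.

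The peaks come from 1 library, labelled ChIP-Bcl3, of the mouse embryonic stem cell line CGR8, in which digested nuclei were precipitated with an antibody against Bcl3. The series also holds 1 library labelled Input from the same line, which was not analysed here on its own. Both were grown with serum replacement at 15% and leukemia inhibitory factor at 1000 U/ml on 0.1% gelatin, with no other treatment or allele in the labels. With 1 library per group there is no spread between libraries, and the read depth is unknown. A peak list holds no expression, so the labelled cell type could not be checked by its markers.

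Histones package DNA into nucleosomes. H2A, H2B, H3 and H4 form the core particle, and the linker histone H1 binds where DNA enters and leaves it. The replication-dependent genes are short, mostly lack introns, lie in clusters and are transcribed mainly in S phase, when new chromatin is made. Their mRNAs end in a stem-loop rather than a poly(A) tail. Bcl3 belongs to the IκB family, is found in the nucleus, and binds DNA through p50 or p52 of the NF-κB family.

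The stretch before the start of linker genes is shown because linker genes were nearest to the member peaks with the highest Poisson scores, and that of Hist1h4h because its peak covered the start. Sequences are the 130 bases before the start in RefSeq's table for GRCm38.p6, 5′ to 3′ along the gene. Capitals mark AAACACA (the H1 box of linker promoters), CCAAT, and TATAAA or TATATA, on either strand. Overlapping TATA matches merge into a single run of capitals. The peaks are in mm9, so the sequences are not placed against them base by base.
Hist1h1b (H1f5, chr13:21780626-21780755, - strand): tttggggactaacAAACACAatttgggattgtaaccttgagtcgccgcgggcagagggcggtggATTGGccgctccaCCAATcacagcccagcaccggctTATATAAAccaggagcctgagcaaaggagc
Hist1h1d (H1f3, chr13:23554902-23555031, + strand): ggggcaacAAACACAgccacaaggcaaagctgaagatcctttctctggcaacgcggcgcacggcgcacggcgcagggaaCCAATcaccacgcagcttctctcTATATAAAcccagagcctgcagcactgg
Hist1h1c (H1f2, chr13:23738677-23738806, + strand): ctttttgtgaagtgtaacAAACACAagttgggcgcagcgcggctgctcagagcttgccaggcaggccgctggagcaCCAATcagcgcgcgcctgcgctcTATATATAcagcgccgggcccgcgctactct
Hist1h1a (H1f1, chr13:23763538-23763667, + strand): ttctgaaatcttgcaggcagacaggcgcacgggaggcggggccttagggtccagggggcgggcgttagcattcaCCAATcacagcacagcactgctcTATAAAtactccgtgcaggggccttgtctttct
Hist1h1t (H1f6, chr13:23695681-23695810, + strand): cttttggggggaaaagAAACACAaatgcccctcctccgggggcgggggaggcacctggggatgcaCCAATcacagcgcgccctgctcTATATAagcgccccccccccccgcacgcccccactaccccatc
Hist1h1e (H1f4, chr13:23622559-23622688, - strand): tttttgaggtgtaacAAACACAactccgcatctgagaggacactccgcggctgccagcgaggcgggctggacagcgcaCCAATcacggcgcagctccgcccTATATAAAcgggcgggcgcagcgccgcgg
Hist1h4h (H4c8, chr13:23530914-23531043, + strand): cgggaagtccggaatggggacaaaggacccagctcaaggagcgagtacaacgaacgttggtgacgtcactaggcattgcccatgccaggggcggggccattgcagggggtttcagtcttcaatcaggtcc

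The linker promoters resembled each other. Of 6 linker genes, 5 held AAACACA in the 250 bases before the start, between 122 and 106 bases before it (Hist1h1a had no match), and all 6 held CCAAT and a TATA match. The stretch printed for Hist1h4h held none of the 3. Its 2 matches of the κB form given below, 59 to 50 and 42 to 33 bases before the start, are not capitalised. Promoter windows were found for 53 of the 57 histone genes. Among them CCAAT was in 83.0%, a TATA match in 56.6% and AAACACA in 17.0%, against 33.9%, 15.6% and 6.25% of all 32851 windows of the same length. By class, CCAAT was in 14 of 14 H2a, 13 of 13 H2b, 8 of 9 H3 and 3 of 11 H4 windows. Outside the linker genes, AAACACA was in 2 of 14 H2a, 2 of 13 H2b, 0 of 9 H3 and 0 of 11 H4 windows. GGG and CC with any 5 bases between them, a loose form of the κB site to which NF-κB binds, were in 22.6% of histone windows and 45.8% of all windows. The fixed letters of this form are all G or C, so these shares depend on base composition, for which the windows were not matched. With and without a peak within 5 kb, 3 of 16 and 9 of 37 histone windows held them. Only 2 of the 8 peaks within 5 kb spanned the listed start, so most of these windows lie outside the peaks. Peak sequences were not searched, so this split does not describe the letters under the peaks. These are matches of letters on both strands and not binding sites, and the divergent H2a and H2b genes share much of their window.

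Of the 16 peaks, 9 lay within 10 kb of the transcription start site (TSS) of a histone gene and 8 within 5 kb, all of them in the Hist1 cluster on chromosome 13. For the other 7, the nearest listed histone gene was 58.9 to 866.9 kb away, and 5 of these 7 had a closest transcript that was not of a histone gene. Distances run from the peak midpoint to the listed TSS, and a positive one is downstream. The share of members within 5 kb of any TSS was 12 of 16 peaks (75.0%, exact Clopper-Pearson 95% interval 47.6 to 92.7%), against 21.9% of all 1130 peaks. Within 1 kb it was 10 of 16 (62.5%), against 14.3% of all peaks. Of the 12, 8 are the peaks near histone starts, so these shares are not independent of how the members were chosen. The interval treats neighbouring peaks as independent and is not a test. A histone gene was the closest transcript of 9 of the 16, and 14 of 16 (87.5%) had a closest transcript at all, against 55.1% of all peaks.

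Linker genes were the nearest histone gene of 4 of the 9 peaks within 10 kb, H2b genes of 2, H3 genes of 2, an H4 gene of 1 and H2a genes of 0. The Hist1h1b peak, chr13:21872125-21872474 in mm9, had a log2 fold enrichment of 3.39, a −log10 Poisson p (the Poisson score) of 8.65 and a false discovery rate of 0.179. It reached from 52 bp before the listed TSS to 297 bp after it, and 85.1% of it was coding sequence. Hist1h1b encodes linker histone H1.5.

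Hist1h1d, which encodes H1.3, was the only histone gene nearest to 2 of the 9 peaks, and 325 bp separated them. The first, chr13:23647075-23647349, had a log2 fold enrichment of 2.82, a Poisson score of 12.5 and a false discovery rate of 0.372, and lay wholly in the coding sequence, 173 to 447 bp from the TSS. The second, chr13:23647675-23647874, had 2.62, 14.7 and 0.529, and lay 773 to 972 bp from the TSS, past the coding end at 721 bp. The Hist1h1d pair therefore flanked the coding end without covering it.

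The Hist1h1c peak, chr13:23831200-23831549, had a log2 fold enrichment of 3.19 (9.16-fold), a Poisson score of 13.9 and a false discovery rate of 0.199. It spanned the end of the coding sequence, from 525 to 874 bp after the TSS with the coding end at 680 bp. Hist1h1c encodes H1.2. Hist1h1a (H1.1) had no peak of its own: its nearest was the Hist1h3a peak, 1662 bp upstream of its TSS. Hist1h1e (H1.4) and Hist1h1t, which encodes the testis linker histone, were 66.7 and 43.7 kb from their nearest peaks.

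Core histone genes had the remaining 5 peaks within 10 kb. The Hist1h4h peak, chr13:23622750-23623149, covered the listed TSS from 168 bp before to 231 bp after it, with a log2 fold enrichment of 2.90, a Poisson score of 7.48 and a false discovery rate of 0.324. Its midpoint, 31 bp after the TSS, was the closest of any member to a histone start. Hist1h4h encodes histone H4.

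The Hist1h3a peak, chr13:23853625-23854124, had a log2 fold enrichment of 2.78, a Poisson score of 5.53 and a false discovery rate of 0.402, and lay 130 to 629 bp after the TSS. The Hist1h3i peak, chr13:21874625-21874849, had 2.89, 6.70 and 0.324, and lay 416 to 640 bp after the TSS. Both genes encode H3, and both peaks spanned the end of the coding sequence, at 443 and 437 bp.

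The Hist1h2bl peak, chr13:21806850-21807524, was the strongest of the 9 by fold, with a log2 fold enrichment of 3.58 (12.0-fold), a Poisson score of 6.67 and a false discovery rate of 0.179. It was also the longest of the 9, at 675 bp, and began 487 bp after the TSS, past the listed gene end at 380 bp. The Hist1h2bj peak, chr13:22142650-22142949, had 3.33, 5.20 and 0.179 and lay 7701 bp downstream of the TSS. Both genes encode H2B, and neither peak touched the gene.

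**Figure D1:**
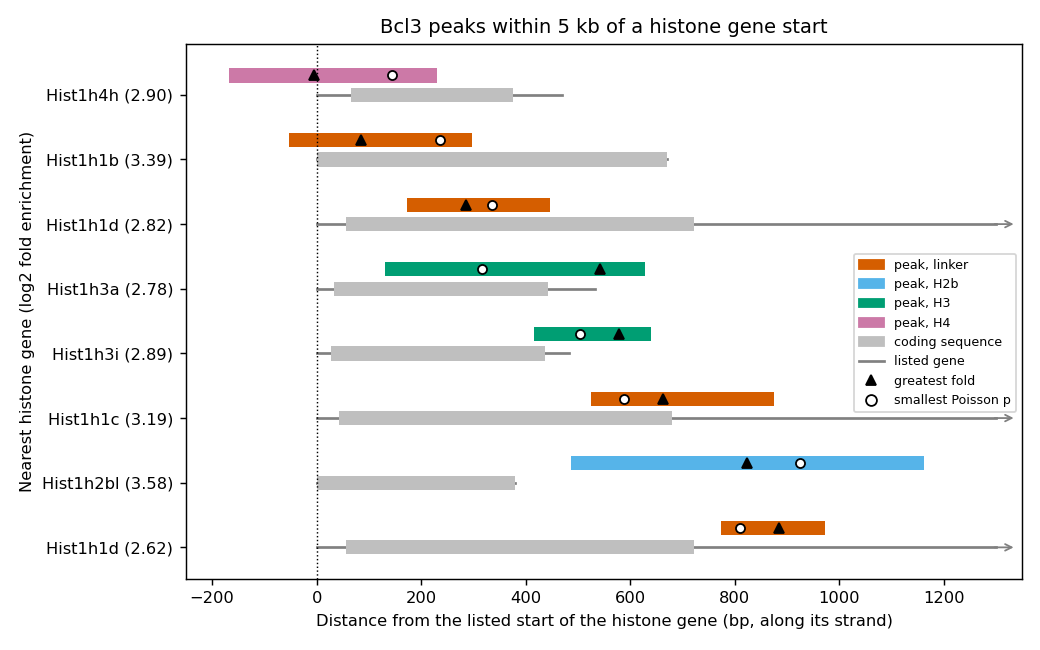
The 8 Bcl3 peaks within 5 kb of a histone TSS (coloured bars, by class of the nearest histone gene) above their nearest histone gene (line, with coding sequence in grey), in bp from the listed start along the gene's strand. Triangles mark the position of the greatest fold and circles that of the smallest Poisson p. Only the bars of Hist1h4h and Hist1h1b cross the start, and those of Hist1h3a, Hist1h3i and Hist1h1c cross the coding end.

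The peaks near histone starts lay after the start of their nearest histone gene. All 8 within 5 kb had their midpoint downstream of the nearest histone TSS, against 61.1% of the 247 peaks within 5 kb of any TSS. Their summits and the positions of the smallest Poisson p were downstream in 8 of 8, and the position of the greatest fold in 7 of 8, with that of Hist1h4h 6 bp upstream. Relative to other histone genes within 5 kb, the same peaks lay on both sides. The Hist1h2bl peak was 1103 bp upstream of Hist1h2ai. The Hist1h3a peak was 849 bp upstream of Hist1h4a and 4985 bp downstream of the Hist1h4b start. The listed TSS was spanned by 2 of 8 peaks, against 13.4% of the 247, and the coding end by 3 of 8, against 4 of the 247 (1.62%). The 247 include these 8 peaks, so they are not an outside background. Histone genes are short (median listed length 410 bp), so a peak that begins 416 bp after the start, as at Hist1h3i, already covers the end of the gene. Of the 57 listed genes, 32 have a listed start and end equal to those of the coding sequence, so the true TSS may lie farther upstream. Hist1h1b is among them, and its peak reached only 52 bp before the listed start. Whether the Hist1h1b peak spans the true TSS is therefore not known.

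The deposited class flags placed most of these peaks in exons. Of the 9 peaks within 10 kb, 6 were flagged as exonic, against 7.7% of all peaks, and 3 as intergenic, against 60.8%. Those of Hist1h1c and Hist1h1d (second peak) were flagged as 3′ UTR, against 0.708% of all peaks. Introns held 0 of 9 (exact 95% upper limit 33.6%), against 32.2% of all peaks, and histone genes mostly have none to hold a peak. The 9 were chosen for lying near a histone start and the full list was not. These differences in flags therefore follow in part from the choice.

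Fold enrichment of the members sat within the range of the list, while several Poisson scores were high. The 16 peaks had log2 fold enrichments of 2.62 to 3.58 with a median of 3.08, against 2.48 to 4.02 and a median of 2.93 over all peaks. The 9 within 10 kb had a median of 2.90. Their Poisson scores ran from 5.20 to 14.7 with a median of 7.48, against a median of 5.80 over all peaks. A score above 10 was found in 3 of the 9, both Hist1h1d peaks and the Hist1h1c peak, against 2.57% of all peaks. These 3 ranked 6, 8 and 12 of 1130 by score. The lowest false discovery rate, 0.179, was held by the Hist1h1b, Hist1h2bl and Hist1h2bj peaks among the 9 and by 4 of the 16, against 21.1% of all peaks. No member peak had a rate below 0.179. The median rate was 0.324 for the 9 and 0.251 for the 16, against 0.296 over all peaks. The second Hist1h1d peak had the highest score of the members but also their lowest log2 fold enrichment (2.62) and highest rate (0.529).

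**Figure D2:**
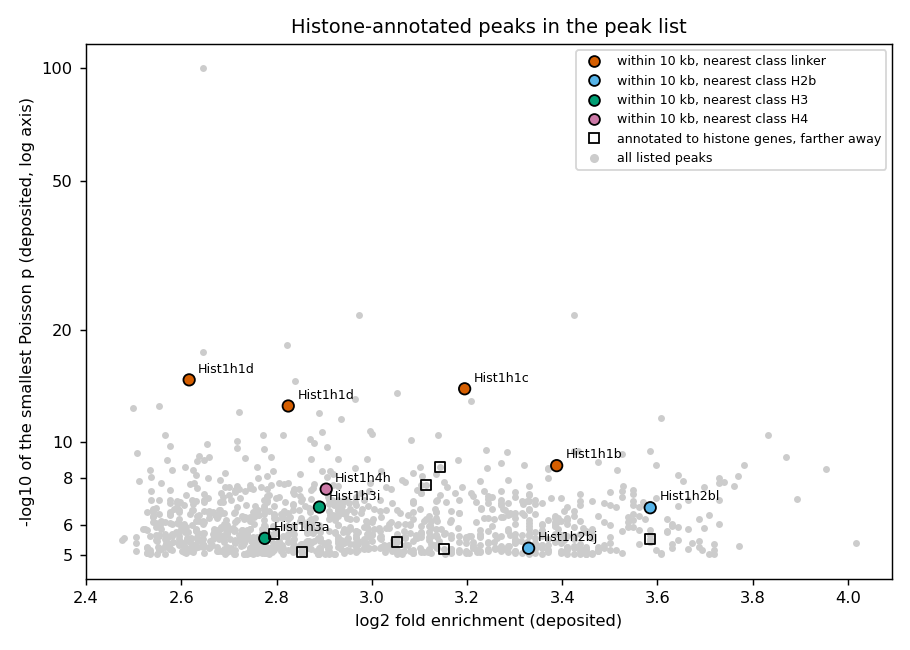
Each listed peak by its deposited log2 fold enrichment (x) and its deposited −log10 Poisson p (y, log axis). Coloured points are the 9 peaks within 10 kb of a histone TSS, by class of the nearest gene, open squares the 7 other histone-annotated peaks, and grey points all 1130 peaks. The Hist1h1c and Hist1h1d peaks stand at scores of 12.5 to 14.7, and the other members below 10.

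The fold values are coarse. Of the 1130 peaks, 886 share their log2 fold enrichment with another peak, and the list holds 491 distinct values. The Hist1h2bl peak shares its value with 6 others, among them the histone-annotated peak at chr13:24227400-24227574, which is 201.2 kb from Hist1h2aa. That of Hist1h2bj is held by 17 peaks in all. The Hist1h1c and both Hist1h1d values are held by no other peak.

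By gene, 17 of the 57 histone genes (29.8%) had a peak within 5 kb of the TSS, against 3.11% of all 8982 genes of the annotation, and 25 (43.9%) within 10 kb, against 4.43%. Only 8 peaks stand behind the 17 genes. The Hist1h3a and Hist1h3i peaks each lay within 5 kb of 4 histone genes, and the Hist1h1c peak of 1. Linker genes had 4 of 6 within 5 kb (66.7%), H3 genes 4 of 11 (36.4%), H4 genes 4 of 12 (33.3%), H2a genes 3 of 14 (21.4%) and H2b genes 2 of 14 (14.3%). The linker genes include Hist1h1a, whose nearest peak is that of Hist1h3a. By peaks, 6 lay within 5 kb of a linker gene, 5 of an H3, 4 of an H4, 3 of an H2a and 2 of an H2b gene. The same peak can count in several classes. Genes just inside 5 kb were Hist1h4b at 4985 bp and Hist1h2bp at 4619 bp, and the first outside was Hist1h3c at 6015 bp.

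The median distance to the nearest listed peak was 1180.5 bp for linker genes, 6459 bp for H3, 15.3 kb for H2b, 17.0 kb for H2a and 22.7 kb for H4 genes, and 15.0 kb over all 57. The nearest gene was Hist1h4h (31 bp) for H4, Hist1h1b (123 bp) for linker, Hist1h3a (380 bp) for H3, Hist1h2bl (824 bp) for H2b and Hist1h2ai (1103 bp) for H2a. The ranges of the classes overlapped. The farthest were Hist1h1e at 66.7 kb, Hist2h3c1 at 59.9 kb (listed at the same coordinates as Hist2h3b), the testis genes Hist1h2ba and Hist1h2aa at 172.2 and 172.5 kb, and Hist4h4 at 333.6 kb.

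**Figure D3:**
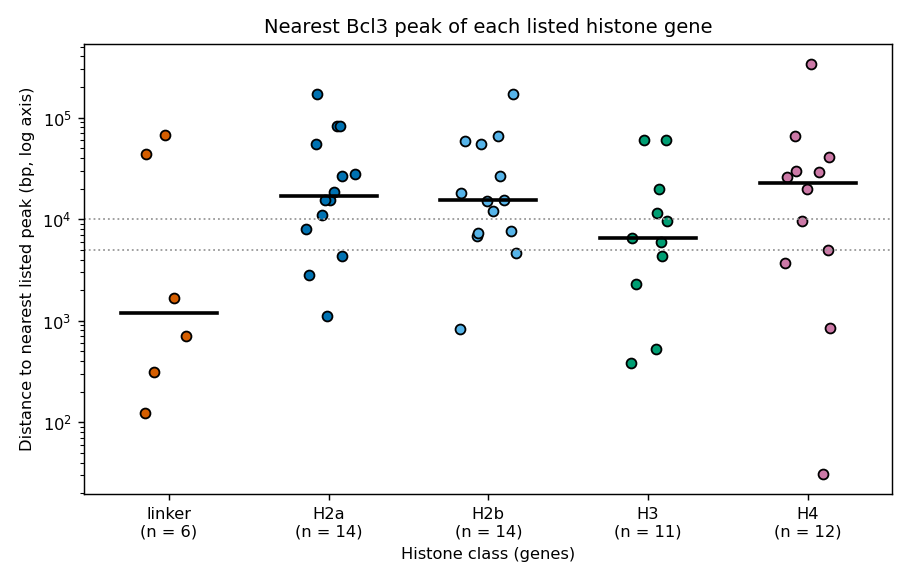
Distance from the listed TSS of each of the 57 histone genes to its nearest listed peak (bp, log axis), by class, with the median as a bar and dotted lines at 5 and 10 kb. Linker genes have the lowest median, 1180.5 bp, from 6 genes, and the classes overlap.

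The Hist1 genes fall into 3 blocks on chromosome 13, split where neighbouring listed genes are over 200 kb apart. The first holds 14 listed genes over 96.3 kb with 3 peaks, the second 5 genes over 8.44 kb with 1 peak past its last gene, and the third 31 genes over 403.8 kb with 5 peaks. With 10 kb added on each side the blocks held 9 peaks in 0.569 Mb, or 15.8 peaks per Mb, against 0.524 per Mb over the rest of chromosome 13 between its first and last peak. The blocks are drawn around genes that were listed because of peaks, so this density is not independent of the choice. Between the Hist1h2bj peak, past the end of the second block, and the Hist1h4h peak at the start of the third lay 1.48 Mb without a listed peak.

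Peaks were uneven inside the blocks. In the first, the Hist1h1b and Hist1h3i peaks were 2.2 kb apart, and 64.6 kb without a peak, with the starts of 8 listed histone genes, lay before them. In the third, 183.3 kb without a peak separated Hist1h1d from Hist1h1c, a stretch with the starts of 14 listed histone genes, among them Hist1h1e, Hist1h1t and Hist1h1c itself. The peaks of Hist1h1c and Hist1h3a were 22.1 kb apart.

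**Figure D4:**
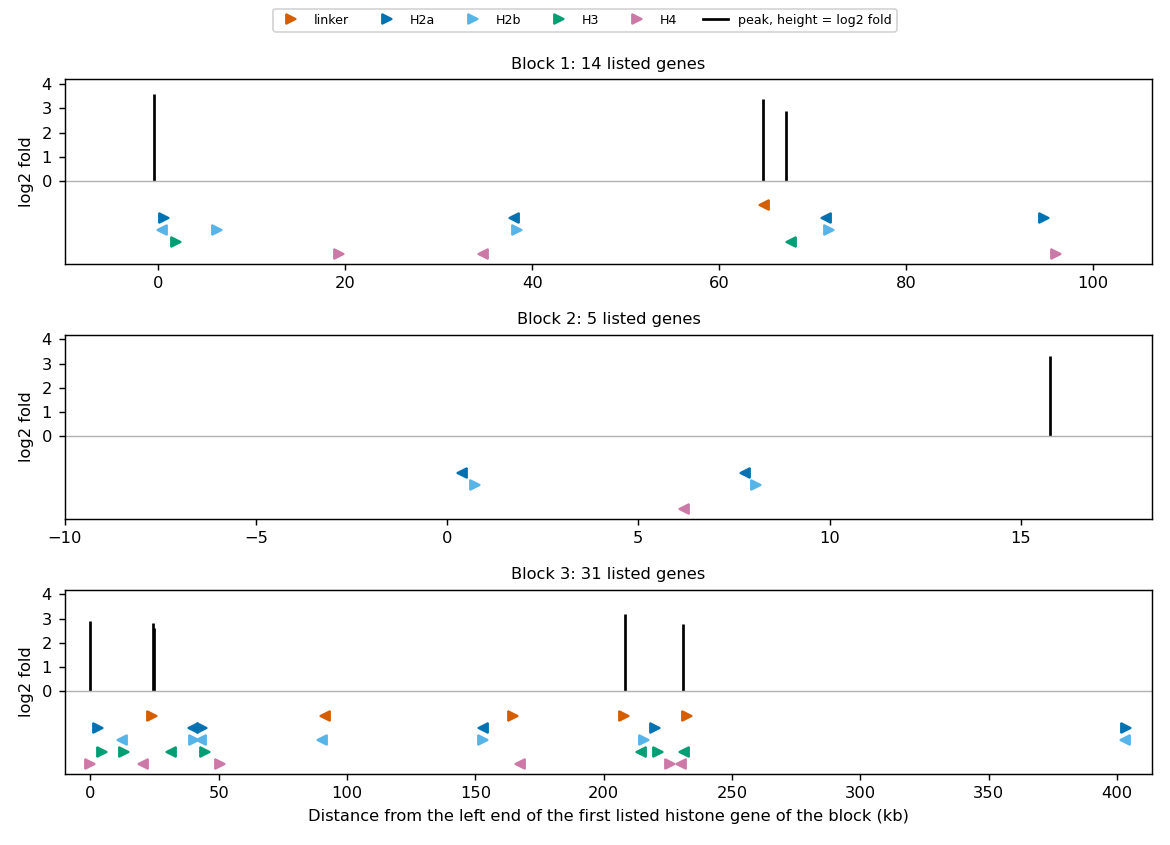
The 3 blocks of Hist1 genes, in kb from the left end of the first listed gene of each block. Arrowheads show the start and strand of each listed gene by class, and vertical lines the peaks within 10 kb, with the log2 fold enrichment as height. Peaks sit at a few places in each block, with a stretch of 183.3 kb without a peak in the third.

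The other clusters had no close peak. Of the Hist2 genes on chromosome 3, 6 were listed, with 2 peaks. The nearer, chr3:96132375-96132649, had a log2 fold enrichment of 3.14 and a Poisson score of 8.58 and lay 58.9 kb downstream of Hist2h2bb, with Fcgr1 nearer, 34.6 kb away. The other, chr3:96365300-96366074, had 3.11 and 7.68 and lay 3807 bp downstream of the TSS of Txnip, which encodes an inhibitor of thioredoxin. Hist4h4 on chromosome 6 was listed for a peak 333.6 kb away (3.05), and no peak was listed for the Hist3 genes of chromosome 11. RefSeq's table holds 56 Hist1, 10 Hist2, 3 Hist3 and 1 Hist4 names, of which 50, 6, 0 and 1 genes were listed.

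The 4 remaining peaks on chromosome 13 lay at other genes. One was 30 bp from the start of Zfp192 (2.79), one 1882 bp upstream of Gmnn (2.85), which encodes geminin, an inhibitor of replication licensing, and one 276 bp upstream of BC005537 (3.15). The last had Lrrc16a as its closest transcript (3.58). Each was listed for between 1 and 4 histone genes, the nearest of them 185.1 to 866.9 kb away.

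Genes that act with these histones were looked up by name, and their counts stand against 3.11% of all 8982 listed genes with a peak within 5 kb and 4.43% within 10 kb. Of 12 replication-independent histone genes, 7 were listed and 1 had a peak within 5 kb: H3f3b, one of the genes for the variant H3.3, with a peak 243 bp after its TSS (log2 fold enrichment 3.16, Poisson score 7.58, false discovery rate 0.223). The next nearest were H2afz, encoding H2A.Z, at 85.1 kb and H2afx, encoding H2A.X, at 127.0 kb. Of 20 histone chaperone genes, 5 were listed and 1 had a peak within 5 kb, Rbbp7, a histone-binding subunit of several chromatin complexes (554 bp upstream, 2.85). Supt16h, a subunit of the FACT chaperone, had an intronic peak 15.4 kb from its TSS (3.24, Poisson score 8.52). Of 27 genes for histone gene transcription and mRNA 3′ end processing, 13 were listed and 0 of the 13 had a peak within 10 kb, a count near the share over all listed genes. The nearest were Ncbp2 at 57.0 kb, Zfp473 at 68.2 kb and E2f3 at 70.3 kb. Npat, the coactivator of histone genes, was 729.1 kb from its nearest listed peak, and Slbp, the stem-loop binding protein, 879.1 kb.

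Core histone genes of a class are nearly identical in coding sequence, and how reads that align to several of them were treated is not given in the sources used here. A peak that overlaps coding sequence in part, such as those of Hist1h3a (62.8%) and Hist1h4h (41.8%), is therefore uncertain as to which gene copy its reads came from. Linker peaks also overlapped coding sequence, at Hist1h1d (first peak, 100%), Hist1h1b (85.1%) and Hist1h1c (44.6%). Whether their reads align to several linker genes was not checked.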

How the data were processed

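Values come from the peak workbook deposited by the authors. Its positions are mm9 (submitters' processing notes). How reads were aligned, peaks called and input used is not stated in labels or headers. Per the file headers, the deposited values are the greatest log2 fold change in each peak (no denominator named), a maxT score (not used), −log10 of the smallest Poisson p-value, and a false discovery rate, read as a q-value. Read depth is unknown. Positions are listed from 1 as in the files.

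Members were taken from gene names in the wide annotation. Its 14602 rows give TSS distances from the peak midpoint, and all were equal to recomputed ones within 1 bp. All 57 genes matched RefSeq (GRCm38.p6) by gene ID, used for names and promoters only. Counts, medians and exact binomial intervals were computed in Python 3.11.15 with pandas 2.3.3 and scipy 1.17.1. The intervals cover counting error over peaks only, and no test was run, since 1 library has no replicates. The code for the distance rule was run on simulated positions, a check of its arithmetic only.

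Named peaks were all those within 10 kb of a histone TSS, with the nearest and farthest gene of each class. For the other gene lists, genes with the nearest peaks were named. The members and lists were chosen with earlier results of these data known. Alternatives restricted the list by false discovery rate, fold or Poisson score, merged peaks within 1000 bp, used the closest-transcript sheet, or changed the window. The promoter letters were chosen after the data were seen.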

Additional observations from a re-analysis of the deposited data

How the results depend on the processing

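Of 76 alternative values, 39 stayed within the counting interval of the main value or, for counts, within 1.5 times of it, and 37 moved. Fewer peaks remain under several alternatives by construction. At the lowest false discovery rate there were 4 histone-annotated peaks, with a median log2 fold enrichment of 3.49, and 5 histone genes within 5 kb (1 linker, 1 H2a, 1 H2b, 2 H3, 0 H4). Among the 565 peaks with the greater fold there were 9 peaks and 6 genes (2 linker, 1 H2a, 1 H2b, 2 H3, 0 H4). Among the 565 with the greater Poisson score there were 9 peaks, and H4 genes fell to 2. With the closest-transcript sheet, which names 1 gene per peak, there were 9 peaks and 7 genes within 5 kb, at a median distance of 453.75 bp. The 7 were 3 linker, 0 H2a, 1 H2b, 2 H3 and 1 H4. With a window of 1 kb there were 8 genes (3 linker, 0 H2a, 1 H2b, 2 H3, 2 H4). With 10 kb, H2b genes numbered 5 and H3 genes 7. With 100 kb, 54 genes had a peak (6 linker, 13 H2a, 13 H2b, 11 H3, 11 H4), and 93.8% of the 16 peaks had a TSS within it. Merging peaks within 1000 bp moved none of these results and joined the Hist1h1d pair, leaving 15 peaks. No paired analysis was possible because the series has 1 ChIP library and 1 input library and no test was run.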
